A study of Mus musculus with 10 samples.

Results

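The genes described here serve the major histocompatibility complex (MHC) and antigen processing in mouse CD4-positive spleen cells of the NOD and B10 strains, before and after stimulation. They are every gene whose symbol starts with H2-, and 19 named genes of peptide supply, loading and regulation, as far as a probe set of the array names the gene alone. By this rule 48 of 19938 measured genes were members, 29 with an H2- symbol and 19 without. By role they were 10 genes of class II and its loading, the class I light chain B2m, 20 other class I genes, 13 genes of peptide supply and class I loading, 3 regulators, and H2-Ke6, a metabolic enzyme gene inside the complex.

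MHC class I molecules are made by nearly all cells and show peptides from the cell's own proteins to CD8 T cells. Those peptides are cut by the proteasome, which exchanges its catalytic subunits for immunoproteasome subunits under interferon, and are pumped into the endoplasmic reticulum by the TAP transporter. MHC class II molecules are made mainly by B cells, dendritic cells and macrophages, show peptides of ingested proteins to CD4 T cells, and are not a usual product of resting mouse T cells. NLRC5 and CIITA are the known activators of class I and class II transcription. The region is also the strongest genetic risk locus for autoimmune diabetes in NOD mice.

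RNA was hybridised to 10 Affymetrix arrays, 1 per sample, from female mice of 8 weeks whose spleen cells had been selected for CD4 with magnetic beads. The B10 animals carry the genotype name B10Br and the NOD animals NODk. B10.BR mice are known to carry the k haplotype of the MHC, whereas the labels do not explain the name NODk. Each strain had 3 arrays of unstimulated cells (T0) and 2 arrays of cells given PMA at 10 ng/ml and ionomycin at 1 uM for 4 hours (T1), drugs that act in place of the T cell receptor. T0 is called basal, and the protocol also allows that the T0 cells were cultured for the same time without drugs. The 10 arrays include no T1 replicate 1 of either strain. Values are log2 expression values, and a difference of 1 is a 2-fold change. Errors on differences are standard errors from limma. "Passed" means a limma p-value below 0.05 after Benjamini-Hochberg adjustment over all 19938 genes. Unadjusted p-values below 0.05 were counted for members and listed genes only, so they have no share of all genes beside them. The samples are labelled biological replicates, but the animals behind them are not named, so p-values measure the spread between these samples, which may in part be technical.

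Array medians lay between 6.18 and 6.23, and Pearson's r between arrays of a group was 0.985 to 0.993. The 8 CD4 T cell markers had summed linear values of 12800 to 14300 on the T0 arrays. Markers of other cells were present as well. At T0 the 9 B cell markers summed to 3430 to 4110 in B10 and 4070 to 5120 in NOD, and the 10 monocyte and macrophage markers to 3040 to 3930 and 5430 to 6670. The 3 erythroid markers summed to 554 to 2850 in B10 and 5190 to 7630 in NOD. No detection calls were used, so a low array value cannot be told from background.

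Genes of MHC class II and its loading fell on stimulation. In B10, 7 of 10 fell and 0 rose, with a median log2 difference of -0.70. In NOD, 9 of 10 fell and 0 rose, with a median of -1.02. Over all genes tested, 31.8% passed in B10 (18.1% lower and 13.7% higher), with a median difference of 0.031. In NOD 35.5% passed (19.5% lower and 16.1% higher), with a median of 0.081. The share of falling genes was thus above the background in both strains. In bulk RNA, fewer cells of a type and less RNA per cell cannot be told apart.

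H2-Ea, which encodes the alpha chain of the class II molecule I-E, read 11.63, 11.71 and 11.45 in unstimulated B10 cells and 10.83 and 10.70 in stimulated ones. The NOD arrays read 11.95, 11.97 and 12.01 at T0 and 9.89 and 10.36 at T1. The T0 and T1 arrays did not overlap in either strain, and the NOD arrays started higher and ended lower than those of B10. The fall was -0.83 ± 0.13 in B10 (limma adjusted p = 0.000278) and -1.85 ± 0.13 in NOD (limma adjusted p = 2.9e-07), or 1.78-fold and 3.60-fold. The k haplotype makes this chain, whereas the b haplotype of C57BL/6 mice and the g7 haplotype usual in NOD do not. In the RefSeq annotation, built on C57BL/6J, H2-Ea is listed as a transcribed pseudogene, and in these arrays it read high in both strains.

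H2-Ab1, the beta chain of the other class II molecule I-A, read 10.01, 10.06 and 9.93 at T0 and 9.65 and 9.29 at T1 in B10. The NOD values were 10.31, 10.29 and 10.46 at T0 and 8.78 and 9.16 at T1. No T0 array overlapped with a T1 array in either strain, and the NOD arrays spanned the wider range. The fall was -0.53 ± 0.13 in B10 (limma adjusted p = 0.00792) and -1.39 ± 0.13 in NOD (limma adjusted p = 3.7e-06). The B10 call ended without B10 T1 replicate 3 (values over the omission of single arrays -0.71 to -0.35).

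H2-Aa, the alpha chain of I-A, read 10.94, 11.03 and 10.73 at T0 and 10.67 and 10.44 at T1 in B10, and 11.12, 11.11 and 11.28 against 9.98 and 10.40 in NOD. Its difference passed in NOD (-0.98 ± 0.14, limma adjusted p = 9.75e-05) and did not pass in B10 (-0.34 ± 0.14, limma adjusted p = 0.0846). Cd74, the invariant chain that guards the class II groove until loading, behaved alike in the tests. It read 10.80, 10.94 and 10.59 at T0 and 10.66 and 10.29 at T1 in B10, where T0 and T1 overlapped (-0.30 ± 0.15, limma adjusted p = 0.173). In NOD it read 11.10, 10.98 and 11.20 at T0 and 10.03 and 10.43 at T1, a fall of -0.86 ± 0.15 (limma adjusted p = 0.000589).

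H2-Eb1, the beta chain that pairs with the H2-Ea product, did not pass in either strain. It read 10.59, 10.65 and 10.37 at T0 and 10.61 and 10.59 at T1 in B10, and 10.83, 10.65 and 10.85 against 10.36 and 10.74 in NOD. T0 and T1 arrays overlapped in both strains, with differences of 0.06 ± 0.13 in B10 and -0.23 ± 0.13 in NOD. Of the chains of I-E, H2-Ea thus passed in both strains and H2-Eb1 in neither, and the difference between the genes was not tested.

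Ctss, the protease that cuts the invariant chain, had the largest fall in B10 among all 48 genes. It read 10.82, 11.14 and 10.99 at T0 and 9.48 and 9.26 at T1 in B10, and 11, 10.90 and 11.14 against 9.28 and 9.70 in NOD. The falls were similar in size, at -1.61 ± 0.14 in B10 and -1.53 ± 0.14 in NOD. H2-DMa, a chain of the peptide exchange factor H2-M, fell in both strains (-1.05 and -0.54). H2-O, the inhibitor of H2-M, is made of the products of H2-Oa and H2-Ob, which also fell (-0.79 and -0.81 in B10, -1.18 and -1.07 in NOD). H2-Eb2, a further beta-chain gene, fell (-0.62 and -0.82) from T0 means of 5.95 and 6.03. Among the class II genes, H2-Ea, Ctss, H2-DMa, H2-Oa, H2-Ob and H2-Eb2 kept their falls in both strains on omission of each single array.

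**Figure D1:**
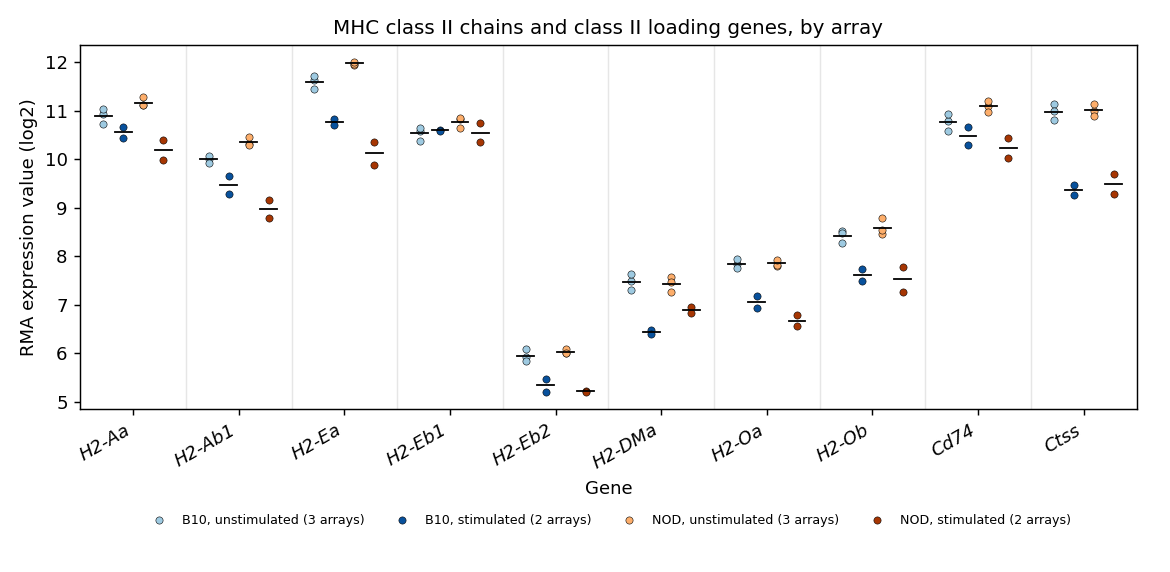
Log2 expression values of the 10 genes of MHC class II and its loading, with 1 point per array, a bar at each group mean, and the 4 groups in different colours. H2-Ea drops from between 11.95 and 12.01 to 9.89 and 10.36 in NOD, and H2-Eb1 shows overlapping T0 and T1 arrays in both strains.

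Markers of cells that make class II moved with these falls, and part of the CD4 T cell markers fell too. Falls passed for 5 of 9 measured B cell markers in B10, where 1 rose, and for 7 in NOD (medians -0.88 and -0.91). Their summed linear level went from 3430 to 4110 down to 2000 to 2070 in B10, and from 4070 to 5120 down to 1690 to 1800 in NOD. The monocyte and macrophage list fell in 10 of 10 markers in each strain (medians -1.44 and -1.73), to summed levels at T1 of 1240 to 1280 in B10 and 1460 to 1870 in NOD. The 7 dendritic cell markers gave 3 falls in B10, and 4 falls with 1 rise in NOD. Of the CD4 T cell markers, 4 of 8 fell in each strain and 1 rose in NOD (medians -0.57 and -0.65). Their summed level went from 14000 to 14300 down to 9070 to 9080 in B10, and from 12800 to 13800 down to 7100 to 8610 in NOD. Single B cell markers were uneven, from -3.57 (Cd79b) to 1.37 (Cr2) in B10 and from -3.78 (Cd79b) to -0.07 (Cr2) in NOD. The part of these cell types in the class II values was not tested.

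RefSeq promoter sequences (build GRCm38.p6) were found for 36 of the 48 genes. All printed and searched bases are those of the reference mouse strain, which is neither strain studied here. The promoters of the mice studied here were not sequenced, and their bases and motif matches may differ. The promoters of H2-Aa and H2-Eb1 are shown because their products belong to class II molecules and both hold the same class II motif, while H2-Aa passed in NOD and H2-Eb1 in neither strain. The 150 bases before the start of transcription read, 5′ to 3′ in the direction of the gene, with the Y box core CTGATTGG in capitals:
H2-Aa (chr17:34287824-34287973, minus strand): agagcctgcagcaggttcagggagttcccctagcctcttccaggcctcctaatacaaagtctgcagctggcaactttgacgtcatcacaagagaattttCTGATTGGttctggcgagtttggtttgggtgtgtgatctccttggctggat
H2-Eb1 (chr17:34305717-34305866, plus strand): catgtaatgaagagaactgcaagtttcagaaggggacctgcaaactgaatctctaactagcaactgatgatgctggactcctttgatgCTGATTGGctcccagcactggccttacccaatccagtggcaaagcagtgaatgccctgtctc

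The motif began at position -51 in H2-Aa and -62 in H2-Eb1, counted back from the start. The search covered both strands over 250 bases before and 50 bases after the start. CTGATTGG was found for 15 of the 36 genes, in 16 of their 39 promoters, and in 4.1% of all 32851 promoters in the table. H2-Oa and H2-Eb2 also held it, as did 8 H2-M genes, Canx and the Tap1 and Psmb9 windows. The Tap1 and Psmb9 windows overlap and hold the same site, so these genes are not separate matches. The shorter ATTGG, which lies inside CTGATTGG, was found for 28 genes, in 29 of the 39 promoters, and in 37.4% of all promoters. A match is a description of letters and no evidence of binding.

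B2m, the light chain shared by class I molecules, read 13.05, 13.24 and 13.12 at T0 and 12.94 and 12.68 at T1 in B10. The NOD arrays gave 12.93, 13.00 and 12.92 at T0 and 12.51 and 12.65 at T1. The T1 arrays lay just below the T0 arrays in both strains, with falls of -0.32 ± 0.11 in B10 (limma adjusted p = 0.0364) and -0.37 ± 0.11 in NOD (limma adjusted p = 0.0171). The B10 call ended without B10 T0 replicate 2 or 3, B10 T1 replicate 3 or NOD T0 replicate 3 (values -0.45 to -0.19), and the NOD call without NOD T1 replicate 2 (-0.44 to -0.30). Both calls also ended with every array shifted to a common 75th percentile. The heavy chain genes H2-K1 and H2-D1 share their probe sets and are no members here.

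The B2m promoter is shown because it was the only member promoter with a match to the kappa B motif GGGA, any base, TTTCC, present in 0.411% of all promoters. It also held the interferon response core GAAA, any 2 bases, GAAA. This core was present in 3.44% of all promoters and in 4 of the 39 member promoters (B2m, Ctss, Erap1 and Psme1). Its 150 bases before the start, 5′ to 3′, carry the interferon core, at position -139, and then the kappa B match, here on the opposite strand, in capitals:
B2m (chr2:122147537-122147686, plus strand): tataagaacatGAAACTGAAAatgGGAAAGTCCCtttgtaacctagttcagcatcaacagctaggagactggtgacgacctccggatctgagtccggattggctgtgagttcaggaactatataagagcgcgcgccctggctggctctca

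Of the 20 other class I genes, 3 fell and 1 rose in B10, and 3 fell and 2 rose in NOD. Of all genes, 18.1% fell and 13.7% rose in B10, and 19.5% fell and 16.1% rose in NOD. The shares of falling and of rising genes in this group were thus below those of all genes in both strains. H2-T10, which RefSeq lists as a transcribed pseudogene of a nonclassical class I chain, read 9.78, 10.10 and 9.81 at T0 and 8.80 and 8.37 at T1 in B10. Readings in NOD were 9.15, 9.04 and 9.17 at T0 and 7.99 and 7.76 at T1. The groups stood in 4 separate bands, and the falls were -1.31 ± 0.14 in B10 and -1.25 ± 0.14 in NOD. H2-M3, which presents formylated peptides of bacteria and mitochondria, fell as well (-0.98 and -0.77). H2-K2 fell in B10 (-0.53) and H2-Q5 in NOD (-0.34), each call ending on omission of 1 T1 array, B10 replicate 3 (values over omissions -0.68 to -0.43) and NOD replicate 3 (-0.46 to -0.23), and the latter also with the 75th percentile scaling.

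The 11 H2-M genes other than H2-M3 had low readings, with group means between 3.33 and 6.4. Among them H2-M10.1 read 4.22, 4.18 and 4.11 at T0 and 4.69 and 4.51 at T1 in B10, a rise of 0.43 ± 0.15. NOD arrays read 4.12, 4.39 and 4.17 against 4.04 and 4.57, with overlapping groups. Its B10 call ended without any 1 of the 5 B10 arrays or NOD T0 replicate 3 (values 0.34 to 0.52). H2-M10.2 and H2-M10.6 rose in NOD by 0.37 and 0.30. The call of H2-M10.2 ended without NOD T0 replicate 1 or NOD T1 replicate 3 (0.22 to 0.51), and that of H2-M10.6 on omission of any array except NOD T0 replicate 3 (0.22 to 0.36). Class I genes of the Q, T and K groups are close copies of each other, so a probe set that names 1 of them can also read its neighbours. H2-Q4, H2-Q2, H2-Q10, H2-T24 and H2-Bl passed in no comparison.

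Genes of peptide supply and class I loading moved in both directions on stimulation. Of 13, 3 rose and 5 fell in B10 (median -0.25), and 5 rose and 4 fell in NOD (median -0.017). In B10 23.1% rose and 38.5% fell, where 13.7% and 18.1% of all genes did. In NOD 38.5% rose and 30.8% fell, where 16.1% and 19.5% of all genes did. The proteasome activator subunits Psme1 and Psme2 rose in both strains. Psme2 read 9.99, 10.19 and 9.69 at T0 and 10.66 and 10.87 at T1 in B10, and 10.07, 9.75 and 10.04 against 10.69 and 10.75 in NOD. All T1 arrays lay above all T0 arrays, with rises of 0.81 ± 0.15 and 0.76 ± 0.15. A further probe set, listing Psme2 together with Psme2b, passed in neither strain. It had 0.02 in B10 (limma adjusted p = 0.943) and 0.14 in NOD (limma adjusted p = 0.476). Psme1 read 10.49, 10.58 and 10.36 at T0 and 10.89 and 10.93 at T1 in B10, and 9.98, 10.05 and 10.06 against 10.71 and 10.65 in NOD. It rose by 0.43 in B10 and 0.65 in NOD.

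The catalytic subunits of the immunoproteasome did not move together. Psmb10 read 9.0, 9.15 and 8.93 at T0 and 7.79 and 7.68 at T1 in B10, and 8.64, 8.49 and 8.64 against 7.82 and 7.82 in NOD. It fell in both strains (-1.29 ± 0.10 and -0.78 ± 0.10), to almost the same level. Psmb9 read 8.93, 9.13 and 8.74 at T0 and 9.27 and 9.09 at T1 in B10, where the groups overlapped (0.25 ± 0.12, limma adjusted p = 0.16). In NOD it read 8.40, 8.31 and 8.52 at T0 and 9.02 and 9.05 at T1, and rose (0.62 ± 0.12, limma adjusted p = 0.00127). Psmb8 read 10.30, 10.26 and 10.20 at T0 and 10.00 and 10.01 at T1 in B10 (-0.25 ± 0.09, limma adjusted p = 0.0533). In NOD it read 9.65, 9.56 and 9.70 against 9.64 and 9.60 (-0.02 ± 0.09).

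Tap1, a chain of the TAP peptide pump, read 9.50, 9.84 and 9.56 at T0 and 9.68 and 9.53 at T1 in B10, with no difference between the overlapping groups that passed (-0.03 ± 0.13). In NOD it read 8.92, 9.07 and 9.18 at T0 and 9.52 and 9.68 at T1, and rose (0.54 ± 0.13, limma adjusted p = 0.00423). The other chain, Tap2, fell in B10 (-0.53) and had a value of -0.22 in NOD (limma adjusted p = 0.122). Tapbp, the bridge between TAP and class I, fell in both strains (-1.25 and -0.71). Its NOD value was -0.46 without NOD T1 replicate 2 and -0.97 without NOD T1 replicate 3, and passed in both cases. Pdia3, the disulfide isomerase of the loading complex, also fell (-0.71 and -0.93). Tapbpl, a relative of Tapbp and a further peptide editor, fell in B10 (-0.52), a call that ended without B10 T1 replicate 3 (values over omissions -0.63 to -0.39). Erap1, which trims peptides in the endoplasmic reticulum, rose in NOD (0.53), and the chaperone Calr fell there (-0.52). Canx, another chaperone, rose in B10 (0.36), a call that ended without B10 T0 replicate 1 or 3 or B10 T1 replicate 2 (0.23 to 0.49).

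**Figure D2:**
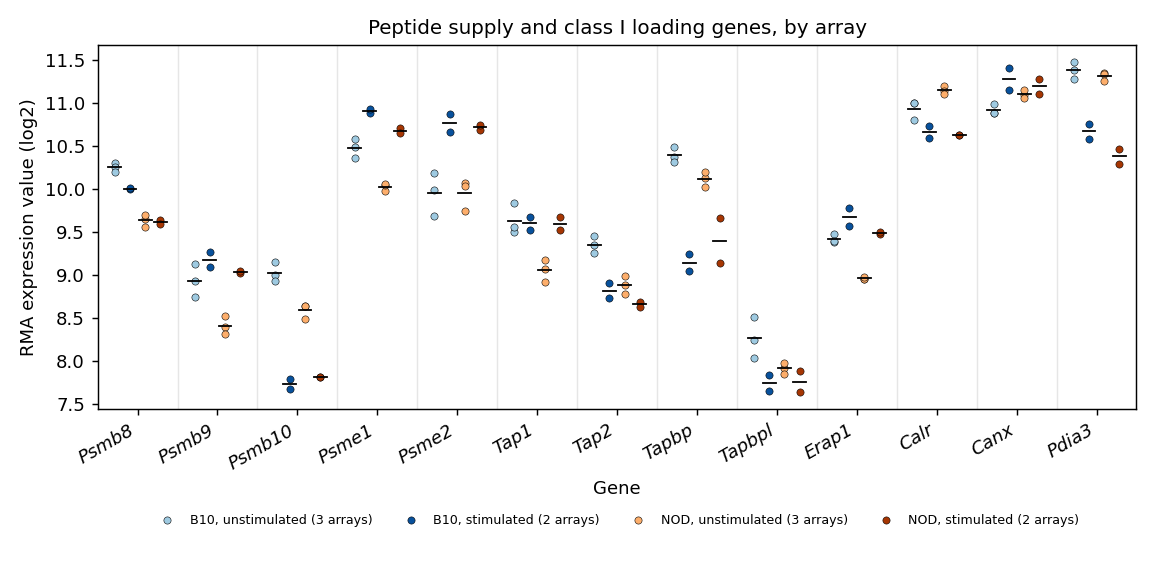
Log2 expression values of the 13 genes of peptide supply and class I loading, with 1 point per array, a bar at each group mean, and the 4 groups in different colours. Psmb8, Tap1, Psme1 and Erap1 show all NOD T0 arrays below all B10 T0 arrays, and Psmb10 drops to between 7.68 and 7.82 at T1 in both strains.

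Over all 48 genes, 4 rose and 16 fell in B10, and 7 rose and 19 fell in NOD. As shares, 33.3% fell in B10 and 39.6% in NOD, and 8.33% and 14.6% rose. Groups did not overlap for 31 members in B10 and 33 in NOD, as for 52.4% and 56% of all genes. Calls coincided for 13 falling genes and for Psme1 and Psme2, and no gene had opposite calls. Medians were -0.14 and -0.10. With arrays shifted to a common 75th percentile, the differences of all genes moved up by 0.12 in B10 and 0.17 in NOD. In B10, 7 members then rose and 15 fell (14.6% and 31.2%, against 19.1% and 14.6% of all genes). In NOD, 13 rose and 15 fell (27.1% and 31.2%, against 34.5% and 15.1% of all genes). No called difference of a member changed sign, and the class II counts stayed at 7 and 9 falls.

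**Figure D3:**
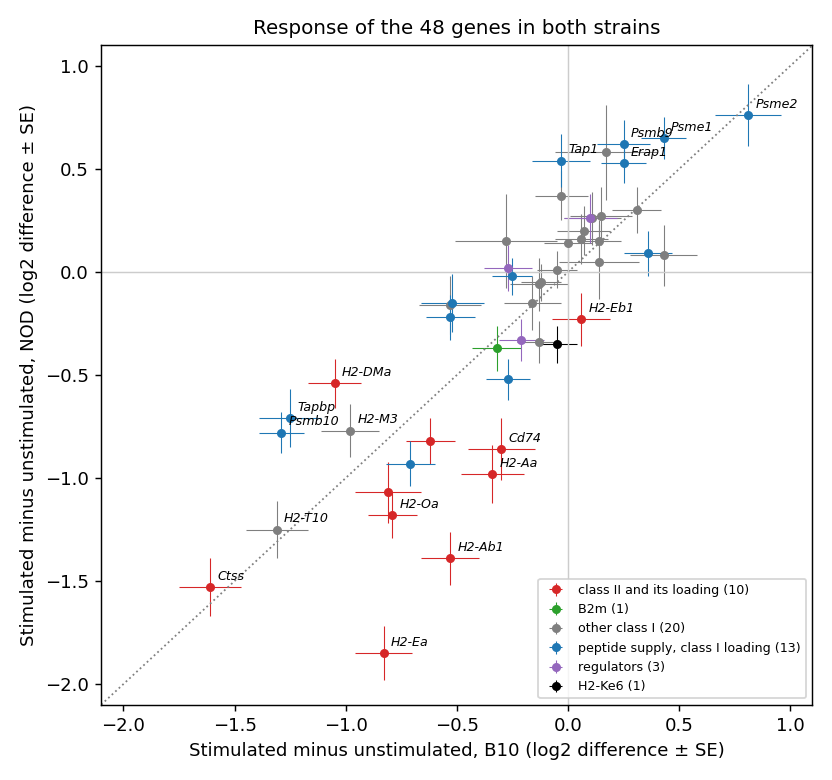
Log2 difference between stimulated and unstimulated cells in B10 (horizontal) and NOD (vertical) for the 48 genes, coloured by role, with standard errors as bars and a dotted line of equal values. Ctss and H2-T10 lie near the line, H2-Ea, H2-Ab1, H2-Aa and Cd74 below it, and Tap1 and Psmb9 above it.

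Before stimulation, genes of peptide supply were lower in NOD than in B10. Of the 13, 7 were lower and 0 higher, with a median NOD minus B10 difference of -0.44. Over all genes 5.79% passed, 2.35% lower and 3.44% higher in NOD, with a median of -0.015. Over all 48 genes 9 were lower, or 18.8%, and 0 higher. By limma no class II gene passed, although 9 of 10 had positive values (median 0.21) and 3 an unadjusted p below 0.05.

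Psmb8 had the lowest adjusted p among them, with 3 NOD arrays of 9.56 to 9.70 against 3 B10 arrays of 10.20 to 10.30 (-0.62 ± 0.08, limma adjusted p = 0.000834). Tap1 differed by -0.57 ± 0.11 (limma adjusted p = 0.00917) and Psmb9 by -0.52 ± 0.11 (limma adjusted p = 0.0134). Tap2 (-0.47), Erap1 (-0.46), Psme1 (-0.45) and Psmb10 (-0.44) completed the group. Outside it, H2-T10 (-0.78 ± 0.13, limma adjusted p = 0.00377) and H2-M3 (-0.50) were lower in NOD. For each of these 9 genes every NOD T0 array lay below every B10 T0 array. Groups did not overlap for 26 of the 48 members, and for 22.8% of all genes. Psme2 had a difference of -0.01 ± 0.13. Whether the array probes match the bases of both strains alike was not tested, here or in the other comparisons between strains.

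The region between Tap1 and Psmb9 is shown because these neighbours are transcribed away from each other from starts 225 bases apart, and both were lower in NOD at T0 and rose in NOD. Its bases are also those of the reference mouse strain and may differ in the mice studied here. The region reads, in the direction of Tap1, with the CTGATTGG motif, here on the opposite strand, in capitals:
Tap1 and Psmb9 (chr17:34187331-34187555, plus strand): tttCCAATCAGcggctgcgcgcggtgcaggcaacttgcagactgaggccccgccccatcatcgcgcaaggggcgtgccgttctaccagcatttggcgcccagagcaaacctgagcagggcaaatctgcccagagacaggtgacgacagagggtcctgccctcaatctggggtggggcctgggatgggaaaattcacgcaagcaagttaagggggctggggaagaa

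These calls rest on few arrays. Only 4 genes passed without B10 T0 replicate 2 and 5 without NOD T0 replicate 1, against 9 in all. Psmb8, Erap1 and H2-T10 passed on omission of each array. Psmb10 and Psme1 did not pass without B10 T0 replicate 2 (ranges -0.49 to -0.37 and -0.51 to -0.39), Tap1 without NOD T0 replicate 1 (-0.64 to -0.47), and Tap2 without either (-0.52 to -0.42). Psmb9 failed without these or B10 T0 replicate 1 (-0.61 to -0.42), and H2-M3 without any 1 of the 6 T0 arrays (-0.53 to -0.47). Other cells differed between the strains in the same arrays. At T0, 6 of 10 monocyte and macrophage markers, 4 of 6 neutrophil markers, 3 of 3 erythroid markers and 1 of 9 B cell markers were higher in NOD, while 2 of 4 NK cell markers and 1 of 2 CD8 T cell markers were lower. NK markers summed to 300.0 to 317 in B10 and 191 to 214 in NOD, and CD8 markers to 283 to 330.0 and 232 to 253. Of the 8 CD4 T cell markers 0 passed by limma and 1 had an unadjusted p below 0.05. The part of these cells in the member values was not tested.

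After stimulation, 2 members were lower in NOD and 0 higher, or 4.17% lower. Of all genes 3.6% passed, 1.83% lower and 1.77% higher. Groups did not overlap for 22 members and for 41.8% of all genes. The largest difference among the 48 did not pass, H2-T24, higher in NOD by 0.95 ± 0.25 (limma adjusted p = 0.0575). Its arrays did not overlap at T1 or at T0, where it had 0.52 (limma adjusted p = 0.208). H2-T10 was lower by -0.71 ± 0.16 (limma adjusted p = 0.0272), near its value at T0. The probe set listing H2-T9, H2-T22 and H2-T10 did not keep its strain difference. It had -0.82 at T0 (limma adjusted p = 0.00308) and -0.11 at T1 (limma adjusted p = 0.721). H2-Ea was lower by -0.64 ± 0.15 (limma adjusted p = 0.0322). The H2-T10 call ended without B10 T1 replicate 2 or NOD T1 replicate 3 (-0.92 to -0.49), and the H2-Ea call without B10 T0 replicate 1, B10 T1 replicate 2 or 3, NOD T0 replicate 1 or NOD T1 replicate 2 (-0.87 to -0.40). Both calls also ended with every probe set, with array weights and with only the arrays compared, and that of H2-Ea with the 75th percentile scaling. Of the 13 genes of peptide supply 0 passed by limma (median -0.086) and 2 had an unadjusted p below 0.05, with values such as -0.01 for Tap1, -0.15 for Psmb9, 0.08 for Psmb10 and -0.39 for Psmb8 (limma adjusted p = 0.055). By limma, 12 of the 48 members had an unadjusted p below 0.05 in this comparison, and all genes were not counted at that threshold. At T1 the 9 B cell markers had a median NOD minus B10 difference of -0.15, with 2 positive values and 1 call, Cd79a (-0.93). The 10 monocyte and macrophage markers had a median of 0.45, with 9 positive values and 1 call, Vcam1 (1.09). The 7 dendritic cell markers had a median of 0.019, with 4 positive values, 0 calls by limma and 2 unadjusted p-values below 0.05. The part of these cells in the H2-Ea value was not tested.

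For 0 of the 48 members did the response itself differ between strains by limma after adjustment, where 0.246% of all genes passed. By limma 12 members had an unadjusted p below 0.05, a threshold at which all genes were not counted. H2-Ea came nearest, with a response in NOD minus that in B10 of -1.02 (limma adjusted p = 0.0574). It passed with the replicate number as a block, as a random (-1.02, limma adjusted p = 0.0376) or fixed effect (-1.05, limma adjusted p = 0.0346). Over 19 alternatives and omissions its value ran from -1.25 to -0.78 and its limma adjusted p from 0.0124 to 0.233. H2-Ab1 had -0.86 (limma adjusted p = 0.118), H2-Aa -0.64, Cd74 -0.56, Tap1 0.57, Psmb10 0.51 and Psmb9 0.37. Falls that passed in NOD alone, as for H2-Aa and Cd74, and rises that did so, as for Tap1 and Psmb9, are therefore not shown to differ from B10. The responses of the 9 B cell markers differed by a median of -0.46, with 1 positive value and 2 calls, both lost with the 75th percentile scaling. These were Cd79a (-1.25), which fell in both strains (-1.71 and -2.95), and Cr2 (-1.44), which rose in B10 (1.37) and had -0.07 in NOD. The responses of the 10 monocyte and macrophage markers differed by a median of -0.23, with 0 calls by limma and 2 unadjusted p-values below 0.05. Those of the 7 dendritic cell markers differed by a median of 0.11, with 4 positive values, 0 calls by limma and 0 unadjusted p-values below 0.05. The part of these cells in the H2-Ea value was not tested.

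The regulators had small changes on the probe sets that stood for them. Ciita, the class II activator, read 6.32, 6.35 and 6.23 at T0 and 6.04 and 6.14 at T1 in B10 (-0.21 ± 0.10, limma adjusted p = 0.147), and 6.25, 6.33 and 6.31 against 5.86 and 6.07 in NOD. Its fall in NOD (-0.33 ± 0.10, limma adjusted p = 0.0215) ended without NOD T0 replicate 2 or 3 or NOD T1 replicate 2 (-0.44 to -0.22) and with the 75th percentile scaling. Rfx5, a subunit of the factor that binds class II promoters, passed in no comparison. H2-Ke6 fell in NOD (-0.35), a call that ended without NOD T1 replicate 3 (-0.37 to -0.33) and with that scaling.

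Nlrc5, the class I activator, had 19 probe sets, and the choice among them decided its calls. The brightest, which stood for the gene, read 9.89, 9.85 and 9.66 at T0 and 9.59 and 9.47 at T1 in B10, and 9.45, 9.68 and 9.56 against 9.57 and 9.59 in NOD. It passed in no comparison (-0.27 ± 0.11 on stimulation in B10, -0.24 for NOD minus B10 at T0). With every probe set tested, 15 of the 19 fell in B10 and 9 were lower in NOD at T0, with medians of -0.61 and -0.54, and all 19 values were negative in both comparisons. On stimulation in NOD the values ran from -0.39 to 0.12, and 1 probe set fell. The mean of the 19 fell in B10 (-0.58 ± 0.11, limma adjusted p = 0.000941) and was lower in NOD at T0 (-0.50 ± 0.10, limma adjusted p = 0.00884). At T1 the strains had a difference of -0.03 ± 0.12 in this mean. The probe sets of 1 gene share their RNA samples and are not replicates.

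**Figure D4:**
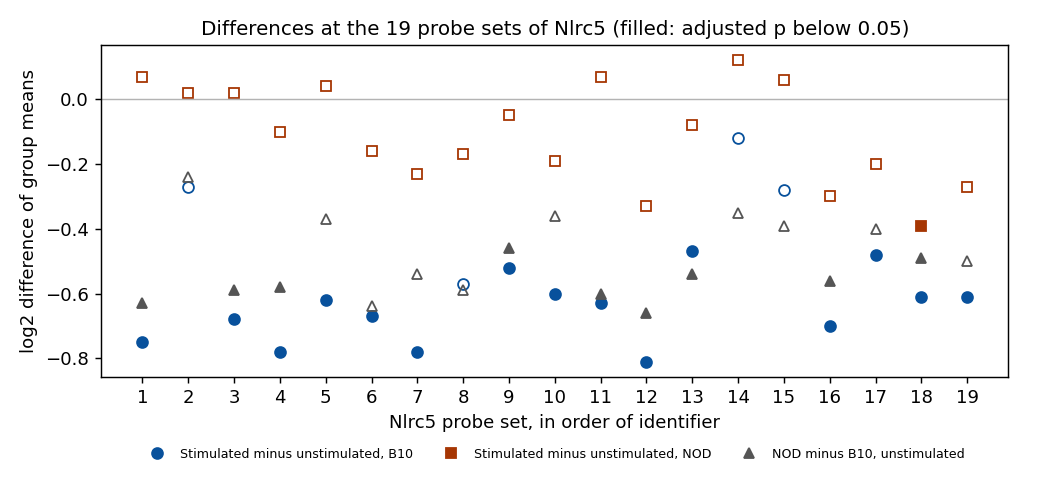
Log2 differences at each of the 19 Nlrc5 probe sets for stimulation in B10 (circles), stimulation in NOD (squares) and NOD minus B10 at T0 (triangles), filled where the adjusted p is below 0.05. Circles and triangles all lie below 0, between -0.81 and -0.12 and between -0.66 and -0.24, while squares run from -0.39 to 0.12.

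Other genes of the pathway were read from lists of its known parts. Of 16 measured genes of interferon signalling and MHC promoter factors, 6 rose and 8 fell in B10, and 5 rose and 6 fell in NOD. In B10 37.5% rose and 50.0% fell, where 13.7% and 18.1% of all genes did. In NOD 31.2% rose and 37.5% fell, where 16.1% and 19.5% of all genes did. Ifng, whose product induces class I and class II genes in many cells, rose by 4.22 in B10 and 4.21 in NOD. The chains of its receptor fell, Ifngr1 by values of -2.96 and -3.21 and Ifngr2 of -1.32 and -1.26. Jak2, a receptor kinase, rose (1.13 and 1.51), as did its inhibitor Socs1 (0.96 and 1.5) and the transcription factors Irf1 (0.66 and 0.75) and Irf8 (2.28 and 1.84). Irf2 fell (-1.32 and -1.45). Of the class II promoter factors, Rfxank fell (-0.77 and -0.63) and Creb1 fell (-0.79 and -1.14), while Nfya and Nfyc passed in neither strain. Between strains 0 of the 16 passed at T0 by limma, where 5 had an unadjusted p below 0.05. At T1 Irf9, an interferon response factor, was higher in NOD (0.70, limma adjusted p = 0.0329).

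Of 23 measured genes of other processing and presentation steps, 7 rose and 10 fell in B10, and 6 rose and 11 fell in NOD. In B10 30.4% rose and 43.5% fell, where 13.7% and 18.1% of all genes did. In NOD 26.1% rose and 47.8% fell, where 16.1% and 19.5% of all genes did. The constitutive proteasome subunits Psmb6 and Psmb7 rose in both strains (0.53 and 0.58 in B10, 0.44 and 0.40 in NOD), and Psmb5 rose in B10 (0.48). The nuclear proteasome activator Psme3 rose too (1.15 and 0.70). The endosomal proteases Ctsd (-1.81 and -1.60), Lgmn (-2.11 and -1.40), Ctsb (-0.80 and -0.88) and Ctsl (-0.74 and -0.67) fell, as did Ifi30, a reductase for ingested proteins (-1.12 and -0.92). Cd1d1 and Mr1, which show lipids and vitamin metabolites to special T cells, fell (Cd1d1 -1.61 and -2.22, Mr1 -1.02 and -1.06). Between strains at T0, 3 of the 23 were higher in NOD and 0 lower, Ctsb (0.72), Psme3 (0.60) and Marchf8 (1.76), a ubiquitin ligase that acts on class II molecules. Marchf8 read 6.72, 5.98 and 7.68 in B10 at T0 and 8.60, 8.13 and 8.92 in NOD. The erythroid marker Alas2 read 8.62, 8.09 and 10.21 on the same B10 arrays and 11.31, 11.21 and 11.54 on the NOD arrays, the arrays standing in the same order within each strain. The 3 erythroid markers were higher in NOD at T0 by a median of 2.38, and their part in the Marchf8 value was not tested. At T1 the proteases Ctsb (0.64), Ctsd (0.58) and Lgmn (0.76) were higher in NOD, beside monocyte and macrophage markers with 9 of 10 positive differences (median 0.45), whose part was not tested.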

How the data were processed

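The deposited table holds log2 values that the authors made with RMA in Affymetrix Power Tools, per the submitters' processing notes, for 35486 probe sets on 10 arrays. RMA corrects background, gives all arrays one distribution of values and summarises probes. Versions, options and genome build are not given in the sources used here, and the log2 base was taken from the range of the values. The platform table names 1 gene for 21789 probe sets and several for 1621. The brightest probe set stood for each of 19938 genes.

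All arrays entered 1 limma model (version 3.58.1, R 4.3.3) with a mean for each of the 4 groups (6 residual and 6.30 prior degrees of freedom), with two-sided tests and a threshold of 0.05 on Benjamini-Hochberg adjusted p-values. The procedure was also run on data simulated with independent normal noise. Such data cannot show effects of shared animals or of the array processing. Marker sums add values after removal of the logarithm. Promoters came from RefSeq (GRCm38.p6) and were searched on both strands for the motifs named and for the kappa B palindrome GGGGA with TTCCCC, which no member promoter held. Lists and members were chosen with earlier results of these data known. Values in every array are given for a list of 14 genes where measured, for members with the 3 largest called rises or falls in a comparison, and for any with a called interaction. Other members are given by counts and ranges, and non-members only from the fixed lists. No block entered the main model, because the labels state none. Correlations between T0 and T1 deviations of equal replicate numbers were 0.413 and 0.404 in B10 and -0.0145 and 0.219 in NOD. Whether equal numbers share animals is thus not known, and fits with a replicate block are given as alternatives. The number of arrays limits the precision. Figures were drawn with matplotlib 3.10.9.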

Additional observations from a re-analysis of the deposited data

Results flagged for a closer look

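Signals appeared in probe sets that list several genes and entered no count above. The probe set listing H2-DMb2 and H2-DMb1, beta chains of the peptide exchange factor H2-M, fell (-1.98 in B10 and -2.84 in NOD), further than any of the 48 genes. It read 9.17 to 9.38 at T0 and 7.16 and 7.49 at T1 in B10, and 9.57 to 9.82 against 6.75 and 6.95 in NOD. One probe set listing H2-D1 with H2-K1, the classical class I heavy chains, fell in B10 (-0.45, limma adjusted p = 0.0199) and had -0.36 in NOD (limma adjusted p = 0.0505). The other probe set of these genes passed in neither strain (-0.25 and -0.27). The probe set listing H2-T9, H2-T22 and H2-T10 fell (-1.25 in B10 and -0.54 in NOD), as did that listing H2-T3 and H2-T18 (-0.83 and -0.41). Each was noted as a signal in data outside the main comparisons. Which of the listed genes gave the signal cannot be told apart.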

How the results depend on the processing

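Counts of members called on stimulation stayed within 1.5 times under every alternative run, at 20 in B10 (14 to 25, and 16 to 21 on omission of single arrays) and 26 in NOD (21 to 28, and 23 to 26). At T0 the strain difference gave 9, 14 with array weights, and 4 to 10 on omission of single arrays. At T1 it gave 2, against 0 with array weights, with every probe set or with only the arrays compared, 1 with the 75th percentile scaling, 4 with brighter genes only, 4 with trend and robust settings, and 0 to 3 on omission. For the interaction, 0 became 1 with brighter genes only (H2-Ea), 2 with trend and robust settings (H2-Ea, H2-Ab1), 1 with a random or fixed replicate block (H2-Ea), and 0 to 1 on omission (H2-Ea without NOD T1 replicate 3, -1.25). The cause was not tested. With the random replicate block, 23 members passed in B10, 26 in NOD, 9 at T0 and 3 at T1, and with the fixed block 19 in B10 and 21 in NOD. No called difference changed sign under any alternative. Leaving out both B10 arrays of replicate 3, chosen after seeing the data, gave 14 in B10 and 10 at T0. Array signal over background is unknown, so small values of dim genes may be understated.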
